A study of Mus musculus with 8 samples.

Results

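The 4 RNA sequencing libraries titled E1WT hold the control naive CD4 T cells of a study of the RNA-binding protein PCBP1, and they are 4 of the 8 libraries in the series. They were taken by title alone, with no expression value used. The cells came from the spleens of male C57BL/6 mice of 6 to 8 weeks, with the wild-type Pcbp1 gene according to the design text, and were enriched with a commercial kit for naive T cells. The genotype field contradicts the titles: it gives these 4 samples as floxed Pcbp1 with Cd4-Cre, a Cre recombinase driven by the Cd4 gene in T cells. Whether the control mice carried Cd4-Cre also differs between fields, since the design text names wild type and the genotype field of the control class names Cd4-Cre beside an intact gene. The labels speak of quadruplicates and do not tie each library to its own mouse, so the spread given here may be technical. The E1KO-titled libraries enter only the check of Pcbp1 below.

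Naive CD4 T cells are mature helper T cells that have left the thymus and have not yet met their antigen. They circulate between blood, spleen and lymph nodes, are kept alive by interleukin 7 and by contact with self MHC, and stay small and out of cycle under transcription factors such as TCF-1, LEF1, FOXO1 and KLF2. On activation they divide and can become helper, follicular helper or regulatory cells, each with its own lead factor and cytokines.

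Pcbp1 itself was read as a check of the title. It stood at 218 CPM (counts per 1000000 gene counts) in library 1, 240.3 in library 2, 222 in library 3 and 196 in library 4, against 38.8 to 42.4 CPM in the E1KO-titled libraries, so the titles and not the genotype field go with the gene. Its paralogue Pcbp2, also a binder of C-rich RNA, had 337 ± 18.0 CPM (SD, n = 4), Pcbp4 had 12.9 ± 1.18 and Pcbp3 6.67 ± 0.51. The Y-linked genes Ddx3y, Kdm5d, Eif2s3y and Uty lay at 101 to 111, 82.4 to 88.5, 78.8 to 85.5 and 32.3 to 35.7 CPM, and Xist at 0.544 to 2.82 CPM, which goes with the stated male sex. The libraries held 28264655 to 36738202 gene counts, so 1 CPM was 28.3 to 36.7 reads and a count of 3 was 0.0817 to 0.106 CPM.

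Of 24421 genes in the count tables, 11225 (46.0%) reached 1 CPM in every library and are called expressed here. Another 8003 (32.8%) stayed under 0.1 CPM in every library and are called silent, among them 6511 (26.7% of all genes) with no count at all. The remaining 5193 genes lay between these limits. The shares over all genes, 46.0% expressed and 32.8% silent, are to be set beside each count of list members given below. Among the 20509 protein-coding genes, 52.8% were expressed and 26.7% silent. Each library alone had 11620 to 11711 genes at 1 CPM, so nearly the same number passed in each. At the upper end, 8195 genes reached 10 CPM in every library, 2126 reached 100 CPM and 86 reached 1000 CPM.

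The counts were concentrated in few genes. The most abundant gene took 1.58 ± 0.02% of all gene counts (SD, n = 4), the 100 most abundant genes took 20.5 ± 0.41%, and 759 to 771 genes were enough for 50% of the counts of a library. Genes differ in length, and levels of different genes were therefore ranked by TPM (transcripts per 1000000), which divides counts by the summed exon length of the gene. On that scale 18 of the 25 highest genes had ribosomal protein symbols, against 12 of the 25 highest by CPM. Fau at rank 17 by TPM, whose product is processed to a further ribosomal protein, is not in that count. Both lists shared 11 genes.

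Eef1a1, the elongation factor that brings aminoacyl-tRNA to the ribosome, led both rankings. It had 15650, 15511, 15850 and 16018 CPM in libraries 1 to 4, and 23963 ± 1410 TPM. Its coefficient of variation over the libraries (CV, the SD over the mean) was 1.41%. Rplp1, a protein of the ribosomal stalk, followed at 16202 ± 1662 TPM, and the beta-actin gene Actb at 9792 ± 1119 TPM. Rplp0, Eef2 (the translocation factor of the ribosome) and Tpt1 (translationally controlled tumour protein) came next at 9239 ± 242, 9118 ± 1378 and 8469 ± 129 TPM. The spread of Eef2 covered the mean levels of Actb, Rplp0 and Tpt1, so Eef2 has no firm place among them. B2m, the invariant chain of MHC class I, had 6670 ± 552 TPM at rank 10, and Tmsb4x, the actin-sequestering thymosin beta 4, had 4792 ± 709 TPM at rank 21. Rps15, of the small ribosomal subunit, had 7734 ± 722 TPM at rank 7. Ranks by TPM depend on the length used. With the mean transcript length in place of summed exons Eef1a1 stayed at rank 1, and Rps15, Tmsb4x and B2m ranked 23, 30 and 50.

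Some genes among the 25 highest by CPM alone were long, with 12928 bases of exon in Myh9, 18313 in Ptprc and 31402 in Macf1, and others were short, with 2783 in Coro1a and 2938 in H2-K1. Myh9, the heavy chain of non-muscle myosin IIA, ranked 9th by CPM at 3629 ± 633 and 109th by TPM. Ets1, a founding ETS transcription factor of lymphocytes, ranked 13th by CPM with 2651, 2536, 2665 and 2886 CPM in libraries 1 to 4, and 97th by TPM at 1202 ± 121. Ptprc, which encodes CD45, ranked 20th by CPM and 248th by TPM, and the cytoskeletal linker Macf1 ranked 25th and 516th. Malat1, a nuclear noncoding RNA, had 4341 ± 559 CPM and 2366 ± 411 TPM. Rn45s, the ribosomal RNA precursor, had 3781 to 4991 CPM, and it had no length in the annotation used and so no TPM. H2-K1, a classical MHC class I gene, had 3135 ± 271 CPM, and reads shared with its near copies were not assigned to it.

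**Figure D1:**
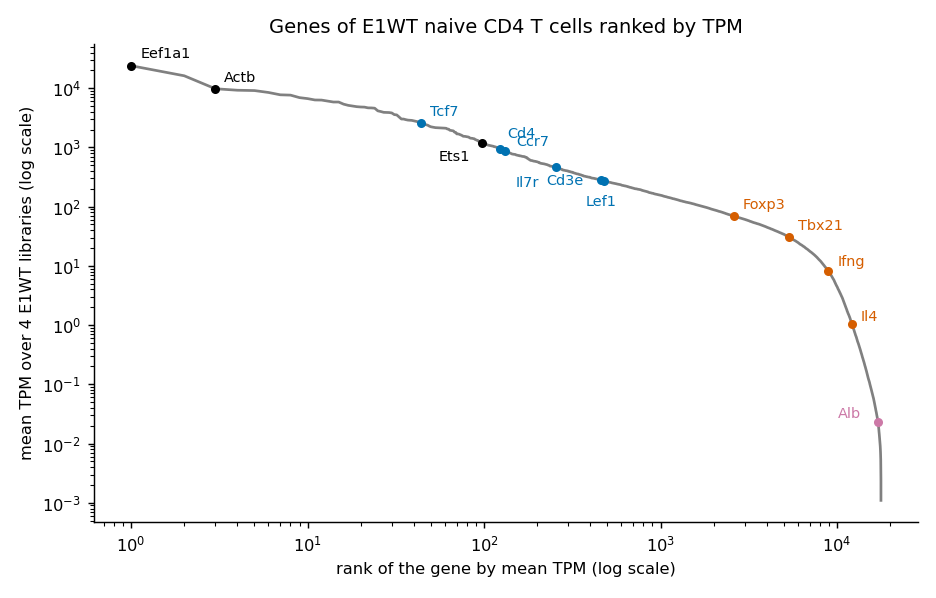
Mean TPM of each gene over the 4 E1WT libraries (y axis, log scale) against its rank (x axis, log scale), for genes with a TPM above 0. Points mark the 6 naive CD4 markers in blue, helper factors and cytokines in orange, Eef1a1, Actb and Ets1 in black and the liver gene Alb in pink. Tcf7 lies at rank 44 and the other 5 markers between ranks 123 and 476, whereas Foxp3 lies at 2593 and Il4 at 12161.

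The 6 markers of the naive CD4 T cell were all high in all 4 libraries. Tcf7, the gene of TCF-1, had 1795, 1749, 1763 and 1744 CPM, a CV of 1.31%, and 2545 ± 114 TPM, in the top 0.183% of genes with a TPM. Cd4, the co-receptor for MHC class II, had 1013, 969, 989 and 1032 CPM and 942 ± 67.98 TPM. Ccr7, the receptor that guides cells into the T zones of lymphoid organs, had 457, 472, 445 and 419.9 CPM and 858 ± 11.2 TPM. Ccr7 was highest in library 2 and lowest in library 4, and Cd4 the reverse.

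Il7r, the alpha chain of the interleukin 7 receptor, had 565, 546, 555 and 602 CPM and 461 ± 41.1 TPM. Cd3e, a signalling chain of the T cell receptor complex, had 321, 342, 299 and 260.4 CPM, and Lef1, the partner factor of TCF-1, had 645, 629, 635 and 647 CPM. Their TPM of 283 ± 20.9 and 276 ± 15.8 did not differ beyond the spread. Cd3e varied most of the 6, with a CV of 11.4%, and was highest in library 2 and lowest in library 4. All 6 markers stood in the top 1.98% of genes by TPM. With the mean transcript length in place of summed exons they lay between rank 101 (Tcf7) and rank 402 (Ccr7).

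The T cell receptor complex and its co-receptors were expressed throughout. All 12 listed members that were measured passed 1 CPM in every library. Their median was 422 CPM, beside 0.657 CPM over all genes and 31.2 CPM over expressed genes. The constant-region genes of the receptor chains themselves are not analysed here. Cd3d had 534 ± 69.5 TPM, Cd3g 485 ± 12.4 and Cd247, the zeta chain, 206 ± 6.80, and by CPM library 4 was lowest in all 3. Thy1, a surface glycoprotein of mouse T cells, had 783 ± 49.7 CPM, Cd6, a receptor that tunes the synapse, 547 ± 16.7, and Cd28, the main co-stimulatory receptor, 426 ± 33.4.

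Proximal signalling was likewise complete, with 19 of 19 measured members expressed at a median of 348 CPM. Lck, the kinase that phosphorylates the receptor chains, had 816, 830, 783 and 752 CPM and 1028 ± 19.5 TPM. Zap70, the kinase recruited next, had 348, 360.0, 356 and 346 CPM. The adaptor gene Grap2 and the Ras exchange factor gene Rasgrp1 had 814 ± 37.9 and 526 ± 49.2 CPM. The sum over the 19 genes was 6916 to 7003 CPM.

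Factors of quiescence and naive identity were expressed in 25 of 25 cases, with a median of 354 CPM. After Ets1 and Tcf7 the members with the highest CPM were Ikzf1, the gene of Ikaros, at 1120 ± 84.3, Klf13 at 1084 ± 199 and Btg1, an antiproliferative gene, at 1059 ± 23.3. Klf2, which drives the homing receptors, had 378, 390.1, 374 and 353 CPM and 766 ± 5.96 TPM. Foxo1, a factor upstream of Il7r and Klf2, had 569 ± 61.6 CPM, Bcl11b, which keeps T cell commitment, 835 ± 68.8, and the chromatin organiser Satb1 822 ± 18.0. Klf13 and Foxo1 were highest in library 4 and lowest in library 2.

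All 20 genes of the naive surface and homing list were expressed, at a median of 503 CPM. S1pr1, the receptor for exit from lymphoid organs, had 603, 596, 615 and 612 CPM and 755 ± 42.2 TPM. The integrin genes Itgal, Itga4 and Itgb7 had 969 ± 65.3, 948 ± 104 and 935 ± 25.8 CPM, and Igfbp4 had 863 ± 14.7. Ccr9, a gut homing receptor, had the lowest level of the list at 9.65 ± 0.55 CPM.

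**Figure D2:**
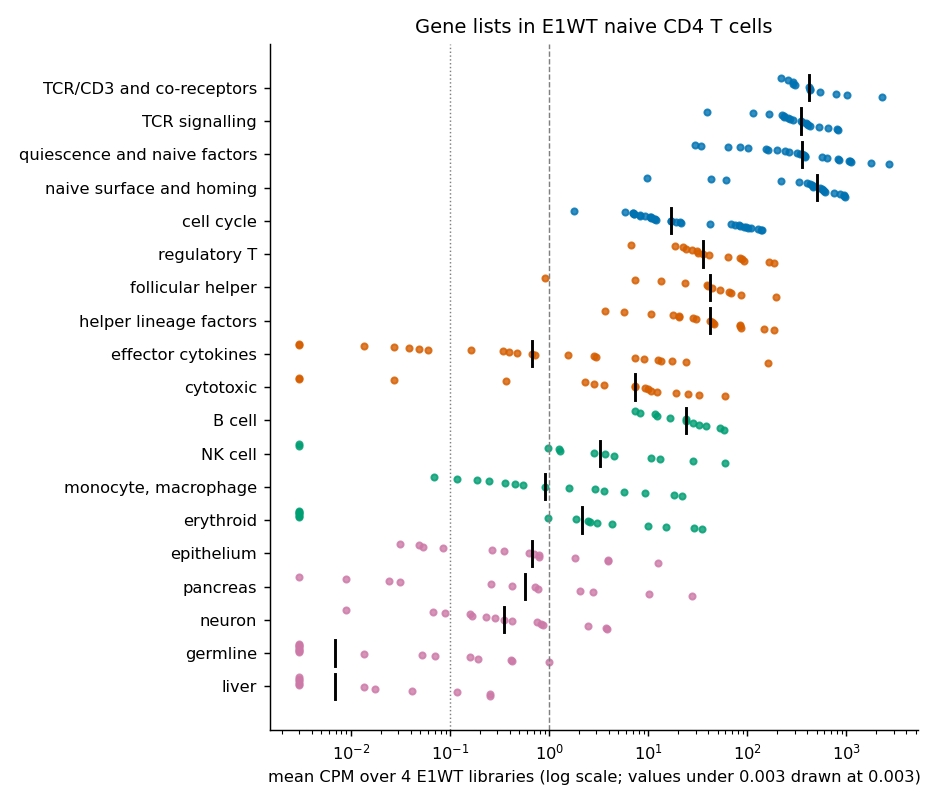
Mean CPM over the 4 E1WT libraries (x axis, log scale, values under 0.003 drawn at 0.003) of each member of 19 gene lists (rows). Each point is a gene and the black bar the median of the list, with T cell identity and cycle lists in blue, helper and effector lists in orange, other blood cells in green and other tissues in pink. Dashed and dotted lines mark 1 and 0.1 CPM, and the identity lists lie above 1 CPM while the liver and germline lists lie mostly below 0.1 CPM.

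Genes of differentiated helper subsets were present at lower median levels than the T cell identity lists above. In bulk RNA a low level from many cells and a high level from few cells cannot be told apart. All 17 lineage regulators were expressed, at a median of 41.8 CPM, beside 31.2 CPM over all expressed genes. The regulatory T cell factor Foxp3 had 87.2, 79.9, 87.8 and 81.3 CPM, and its partner Ikzf2 (Helios) had 188, 163, 168 and 219.9 CPM. The whole regulatory T cell list of 15 genes was expressed, with Izumo1r, the folate receptor 4 gene, at 167 ± 12.4 CPM, Nrp1 at 91.7 ± 12.3 and the interleukin 2 receptor gene Il2ra at 89.3 ± 3.53. Its summed level was 900.1 to 940.4 CPM.

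Of the lead factors of the other subsets, Gata3 of type 2 cells had 85.0 ± 4.63 CPM, Bcl6 of follicular helper cells 44.0 ± 2.48 and Tbx21 of type 1 cells 20.2 ± 2.40. Per length these were 81.0 ± 7.17, 24.9 ± 2.18 and 30.7 ± 2.67 TPM. Gata3 was thus the highest of the 3 beyond their spread. Runx3 had 147 ± 10.99 CPM and Maf 87.0 ± 7.24. Among 12 follicular helper genes 11 were expressed, led by the inhibitory receptor gene Btla at 195 ± 10.5 CPM, and Icos, Cxcr5 and Cd40lg had 85.3 ± 2.88, 67.6 ± 3.12 and 64.9 ± 7.06.

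Effector cytokines were mostly low. Of 23 genes, 10 were expressed (43.5%, near the 46.0% of all genes) and 5 were silent (21.7%, beside 32.8% of all genes). Their median was 0.664 CPM, close to the 0.657 CPM of all genes. Tgfb1, a cytokine made by most leukocytes, was the only one over 100 CPM, with 161, 168, 168 and 155 CPM. Ccl5, a chemokine of memory and cytotoxic cells, had 24.0 ± 5.02 CPM, Tnfsf11 17.2 ± 1.87, Csf1 13.4 ± 1.10 and Lta 12.6 ± 1.52. Il17a and Il9, cytokines of type 17 and type 9 cells, had no count in any library, and Il3, Il17f and Csf2 stayed under 0.1 CPM in all 4. Il21, a cytokine of follicular helper cells, was steady at 7.43, 7.05, 7.48 and 7.66 CPM. Ifng had 2.37, 4.90, 2.33 and 1.75 CPM, Il4 0.177, 0.735, 0.353 and 0.109, and Il2 0.425, 0.463, 0.141 and 0.547. The naming rule did not select Il21, Ifng, Il4 and Il2, which were added with their values known.

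The cytotoxic list had 13 of 17 genes expressed (76.5%, beside 46.0% of all genes). Prf1, the gene of perforin, had 61.6, 55.7, 59.4 and 60.4 CPM, and Ctsw, Nkg7 and Cst7 followed between 19.3 and 32.6 CPM. Of 10 granzyme genes 4 were expressed, a share near the 46.0% of all genes, and 4 had no count. All 23 genes of the activation and memory list were expressed. Ahnak, a large scaffold protein gene, had 510 ± 117 CPM, Itgb1 411 ± 18.8, the intermediate filament gene Vim 372 ± 7.60 and Il2rb 303 ± 17.5. Cd44, which marks memory cells, had 125, 114, 131 and 153 CPM, and Cd69, an early activation marker, had 47.7 ± 4.18.

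Genes of the cell cycle were expressed in 32 of 32 cases, beside 46.0% of all genes. Their median was 17.0 CPM, below the 31.2 CPM over all expressed genes, and their summed level 1364 to 1399 CPM. The replication genes Mcm6, Pcna and Mcm2 were among the highest, with 139, 141, 139 and 146 CPM for Mcm6. Mki67, the gene of the proliferation antigen Ki-67, had 126, 98.2, 132 and 160.3 CPM, and Top2a 97.1 ± 7.31. Mki67 was highest in library 4, as were the long genes described below. Ccne2 was the lowest of the list at 1.76 ± 0.08 CPM.

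Immediate-early genes gave a mixed picture, with 25 of 28 expressed. Zfp36l2 and Zfp36l1, which destabilise mRNA, had 681 ± 29.7 and 420 CPM on average, and Jund had 456, 499, 461 and 386. Egr1, a reporter of antigen receptor signals, was steady at 105, 102, 101 and 108 CPM, whereas Fos had 9.34, 12.7, 11.4 and 7.55. The interferon-response list was expressed in 24 of 24 cases, at a median of 23.2 CPM, beside 31.2 CPM over all expressed genes.

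In metabolism, all 37 genes of oxidative phosphorylation and 19 of 20 of glycolysis were expressed. Pkm, the last enzyme of glycolysis, had 834 ± 18.2 CPM, Ldha 524 ± 33.1, Gpi1 507 ± 11.04 and Gapdh 492 ± 43.9. Eno1, the enolase gene that most cells use, is listed at 0 in every library, and so are H2-Q6, H2-Q7 and H2-T22 of the MHC class I list. Reads that aligned to several places were kept in a row of their own by the authors, so a 0 for a gene with near copies does not show that it was not transcribed. The actin cytoskeleton list of 27 genes was expressed throughout and took 3.05 ± 0.03% of counts. The 84 ribosomal protein symbols, 77 of them expressed, took 10.1 ± 1.06% of counts. All 8 Gimap genes, GTPases of lymphocyte survival, were expressed, with Gimap3 at 1042, 1166, 1029 and 956 CPM.

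Among 37 cytokine receptor genes 35 were expressed. The transforming growth factor receptor gene Tgfbr2 had 634 ± 58.2 CPM, Il7r 567 ± 24.6, the shared gp130 chain gene Il6st 541 ± 70.8, the common gamma chain gene Il2rg 482 ± 50.8 and Il6ra 404 ± 25.1. Of 19 chemokine receptors 13 were expressed (68.4%, beside 46.0% of all genes), and Ccr7 lay far above the next, Cxcr5 at 67.6 ± 3.12 CPM, Cxcr4 at 50.9 ± 8.20 and Cxcr3 at 48.9 ± 4.91. Per length, Ccr7 at 858 ± 11.2 TPM stood against 106 ± 12.7 for Cxcr4. Of 12 Toll-like receptor genes 7 were expressed (58.3%), a share not far from that of all genes, with Tlr1 at 78.8 ± 6.06 CPM as the highest and Tlr12 at 13.1.

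Where several genes encode versions of one protein, the libraries used them unequally. In 30 families the share of the family's TPM was taken for each member, and in 27 of them the same member led in all 4 libraries. With summed exon lengths the leader held over 80% of the family's TPM in 10 families. Eef1a1 took all but a trace of its pair with Eef1a2. Myc held 97.5 ± 0.61% of the Myc family, Zap70 96.0 ± 0.35% against Syk, Hk1 93.7 ± 0.84% of the hexokinases, Ldha 93.0 ± 0.55% of the lactate dehydrogenases and Tcf7 90.2 ± 0.13% of the TCF and LEF family. Plcg1 held 89.6 ± 0.51% over Plcg2, the form used by B cells. These SDs cover the libraries and not the choice of gene length. With the mean transcript length in place of summed exons, Tcf7 held 76.1% and Lef1 23.8%.

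Other families were shared. Ccnd2 held 78.7 ± 2.63% of the D cyclins and Ccnd3 20.1 ± 2.56%, with Ccnd1 at 1.26%. Among survival genes of the BCL2 family Mcl1 held 76.1 ± 0.56% and Bcl2 13.8 ± 1.47%. Lck held 70.9 ± 0.63% of the Src kinases and Fyn 25.5 ± 0.51%. Runx3 held 65.8 ± 0.73% and Runx1 30.1 ± 0.67% of the Runx genes. Akt1 and Akt2, the CD3 chains Cd3d and Cd3g, and Nfatc1 and Nfatc3 changed place between libraries, so no leader can be named in those 3 families. With the mean transcript length in place of summed exons the leader changed in 3 families, to Slc2a3, Klf13 and Tmsb10. Shares moved in other families too, from 56.7% to 82.9% for Jak1 of the JAK kinases. For Dnmt1 of the DNA methyltransferases the share went from 75.3% to 51.6%.

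Markers of other blood cells were present at levels below that of Cd4. The CD8 genes Cd8a and Cd8b1 had 10.8 ± 0.72 and 16.0 ± 2.43 CPM, beside 1001 ± 27.7 for Cd4. All 12 measured B cell markers were expressed, beside 46.0% of all genes, with a summed level of 293 to 332 CPM. Cd22 had 59.6, 55.7, 59.4 and 55.1 CPM and Cd79a 54.6, 63.4, 52.2 and 39.6. The NK list had 8 of 12 genes expressed (66.7%, beside 46.0% of all genes) and a sum of 122 to 130.1 CPM. Its members Prf1 and Eomes are also expressed by T cells. The natural cytotoxicity receptor gene Ncr1 had 3.65 ± 0.28 CPM.

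The monocyte and macrophage list had 7 of 15 genes expressed (46.7%, the share of all genes being 46.0%) and a sum of 58.3 to 71.7 CPM, with Lyz2 at 23.8, 24.3, 21.7 and 17.4. The neutrophil list summed to 51.5 to 53.6 CPM, and its highest member was Mpo, a granule enzyme of myeloid precursors, at 22.7, 24.0, 22.1 and 25.3, whereas S100a8 had 2.78 ± 0.15. The dendritic list summed to 550.2 to 668 CPM, most of it from the MHC class II pathway genes Cd74, H2-Ab1, H2-Eb1 and H2-Aa, with Cd74 at 269 ± 24.9 CPM, while Zbtb46 had 1.57 ± 0.32. Kit, a receptor of progenitors and mast cells, had 26.5, 22.1, 25.4 and 26.03 CPM, the red cell enzyme gene Car1 34.5 ± 6.24 and the heme enzyme gene Alas2 1.87 ± 0.29. All 6 listed haemoglobin genes are listed at 0, and they have near copies.

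One plasma cell gene stood apart from the rest of its list. Jchain, which encodes the joining chain of polymeric antibodies, had 562, 635, 556 and 423 CPM, whereas Xbp1 had 80.2 ± 2.55, Mzb1 18.3 ± 3.79 and Sdc1, the CD138 gene, 12.3 ± 0.595. Per length, Jchain at 815 ± 98.5 TPM stood at rank 139, near Cd4 and Ccr7 at ranks 123 and 132. Those ranks use summed exons, and with the mean transcript length Cd4 ranked 112 and Ccr7 402. The antibody constant-region genes are not analysed here. Of 13 endothelial and stromal markers 4 were expressed (30.8%, beside 46.0% of all genes) and 1 was silent, at a median of 0.862 CPM. Pecam1, an adhesion gene that T cells also express, stood far above that median at 245 ± 8.12 CPM, and Col1a1 had 1.28 ± 0.06. What share these cells had in the results above was not tested.

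Large receptor and barrier gene families were mostly silent. Of 1125 olfactory receptor genes, 1096 (97.4%) were silent and 1070 had no count, beside 32.8% silent over all genes. The 3 expressed ones were Olfr856-ps1 at 29.1 ± 5.31 CPM, Olfr613 at 14.6 ± 1.96 and Olfr99 at 3.31 ± 0.64. Of 338 vomeronasal receptor genes 327 were silent, of 38 taste receptor genes 34, of 56 defensin genes 51 and of 53 keratin-associated genes 50. These are gene families of sensory neurons, epithelial defence and hair.

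Lists for single tissues held 0 to 5 expressed genes, and their silent shares differed. The liver list had 0 of 12 expressed and 8 silent, with Fga, Fgb, Fgg, Cyp7a1, Cyp3a11 and Serpina1a at 0 counts and Alb, the gene of albumin, with counts in library 4 alone, at 0.0547 CPM. The germline list had 0 of 16 expressed and 10 silent, with Zp2, Zp3, Sycp1 and Mael at 0 counts. The pluripotency list had 1 of 10 expressed, Tdgf1, and Nanog, Zfp42, Dppa3 and Dppa5a at 0 counts. Among 39 Hox genes, the patterning factors of the body axis, 27 were silent and only Hoxb4, a gene also used in blood progenitors, was expressed, at 3.21 ± 0.51 CPM.

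Of 8 genes of thymocytes and receptor recombination 4 were expressed, a share near the 46.0% of all genes, with Themis, a signalling protein that mature T cells keep, at 233 CPM on average. Rag2, of the receptor recombinase, stayed under 0.1 CPM in all 4 libraries, and Rag1 had 0.141 to 0.637 CPM. Ptcra, the pre-receptor alpha chain, had counts in library 1 alone, at 0.212 CPM. Dntt, the terminal transferase, was higher at 13.6, 15.1, 11.4 and 11.9 CPM. The muscle list had 5 of 14 expressed and 2 silent, led by Myh4 at 6.95 ± 1.64 CPM, and the neuron list 3 of 15 expressed and 1 silent, led by Map2 at 3.87 ± 0.49. The epithelium list had 1 of 14 silent and the pancreas list 4 of 12, beside 32.8% silent over all genes.

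The pancreas list was lower in libraries 1 and 4 than in libraries 2 and 3. Ins2, an insulin gene, had 0 CPM in library 1, 26.4 in library 2, 83.1 in library 3 and 0.137 in library 4. Ins1, the other insulin gene, had 0.0708, 10.2, 30.2 and 0.0547 CPM in the same order. Both genes ran from the floor in libraries 1 and 4 to 10.2 CPM or more in libraries 2 and 3. Their CVs of 143% and 140% were the highest among the 8478 genes with a mean of at least 10 CPM. The insulin genes reached that mean only through libraries 2 and 3, and genes of lower mean were not ranked. The summed pancreas list was 3.57, 43.4, 128 and 2.79 CPM.

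Most other islet genes looked up were also highest in library 3 and next in library 2. Gcg, the glucagon gene, had 0.389, 2.61, 7.90 and 0.0547 CPM. Further genes were looked up after these values were seen: Iapp, the amylin gene, had 0.0708, 4.33, 12.1 and 0 CPM, and Chga, a granule protein gene of endocrine cells, 0.106, 3.89, 14.6 and 0.0547. Ppy, Pcsk2 and G6pc2 had the same 2 libraries highest, at 1.16, 1.45 and 2.29 CPM in library 3. Sst, the somatostatin gene, was higher in library 2, with 0.142, 0.871, 0.670 and 0 CPM. Of the digestive enzyme genes of the exocrine pancreas, Pnlip had 0.283, 0.925, 1.69 and 0.164 CPM and Ctrb1 0.283, 0.572, 1.41 and 0.383, both highest in library 3 and next in library 2. Cela1 was at 1.98, 1.36, 3.07 and 1.80 CPM and Prss2 at 0.637, 0.817, 1.09 and 0.301. Cpa1 had 0.0708, 0.136, 0.564 and 0.273 CPM, next highest in library 4, and Amy2a5 is listed at 0 in every library. The levels of Pnlip and Ctrb1 rest on few reads, 48 and 40 in library 3. The ratio between the hormone genes was alike in libraries 2 and 3: Ins1 was 38.7% and 36.3% of Ins2, and Iapp 16.4% and 14.6%.

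Keratin genes differed between libraries in another order. Krt14, of basal epidermis, had 12.2, 7.62, 8.22 and 21.5 CPM and a CV of 51.9%, the highest after the insulin genes among genes with a mean of at least 10 CPM. Krt10, of upper epidermis, had 11.96, 4.19, 11.6 and 3.01 CPM and Krt1 11.003, 1.36, 6.95 and 1.83. Krt13, of inner stratified epithelia, had 0, 7.40, 0.212 and 20.1 CPM, and its partner Krt4 0, 3.08, 0.141 and 6.81. Libraries 1 and 3 were thus high in Krt1 and Krt10, and libraries 2 and 4 in Krt13 and Krt4. Other keratins followed neither split and were highest in library 4, like Krt14. Krt5 had 2.02, 2.61, 3.46 and 7.46 CPM, Krt16 5.24, 4.11, 1.16 and 11.9, and Krt17 2.62, 2.07, 2.01 and 3.55. The genes Krt1, Krt4 and Krt13 were looked up after their values were seen.

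**Figure D3:**
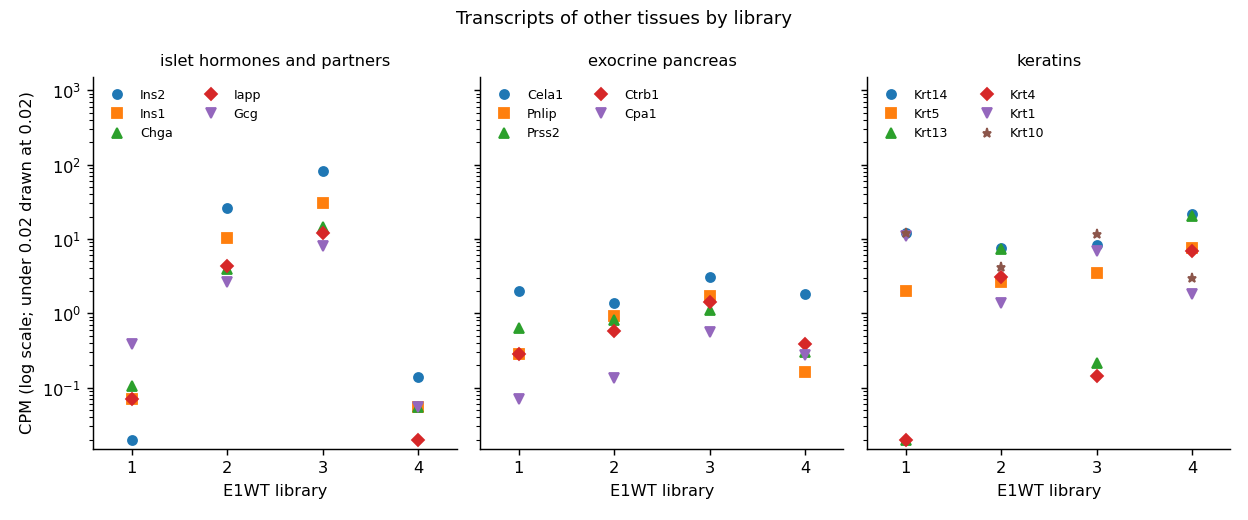
CPM of islet, exocrine pancreas and keratin genes (y axis, log scale, values under 0.02 drawn at 0.02) in each of the 4 E1WT libraries (x axis). Each symbol is a gene, and the 5 islet genes drawn (Ins2, Ins1, Chga, Iapp and Gcg) lie at 2.61 to 83.1 CPM in libraries 2 and 3 and at 0.389 CPM or less in libraries 1 and 4.

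CG dinucleotides are rare in the mouse genome except in CpG islands, which mark the starts of many broadly used genes. RefSeq windows on GRCm38.p6, 250 bases before to 50 bases after each start, were found for 17224 symbols, of which 14569 had 1 window. Expressed genes had 21.9 ± 11.4 CG in the window (SD over 6891 genes) and genes under 0.1 CPM 6.02 ± 8.43 (4767 genes). At least 15 CG stood in 74.2% of expressed and 12.1% of silent genes, beside 46.5% of all. The median rose from 2 in genes with no count to 25 in genes of 100 to 1000 CPM and was 21 in the 56 genes over 1000 CPM. The windows below show both kinds, each from 150 bases before to 10 bases after the start, written 5′ to 3′ on the gene's strand with CG in capitals.
Eef2, chr10:81176481-81176640, plus strand, 7970 ± 846 CPM: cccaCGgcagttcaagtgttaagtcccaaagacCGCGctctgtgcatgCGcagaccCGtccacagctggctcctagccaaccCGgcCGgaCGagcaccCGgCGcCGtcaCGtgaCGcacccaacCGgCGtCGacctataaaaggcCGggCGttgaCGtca
Foxo1, chr3:52268187-52268346, plus strand, 569 ± 61.6 CPM: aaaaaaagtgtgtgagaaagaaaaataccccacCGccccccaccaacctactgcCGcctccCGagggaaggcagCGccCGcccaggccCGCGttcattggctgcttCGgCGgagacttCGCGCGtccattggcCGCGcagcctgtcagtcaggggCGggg
Cd3e, chr9:45009602-45009761, minus strand, 306 ± 35.0 CPM: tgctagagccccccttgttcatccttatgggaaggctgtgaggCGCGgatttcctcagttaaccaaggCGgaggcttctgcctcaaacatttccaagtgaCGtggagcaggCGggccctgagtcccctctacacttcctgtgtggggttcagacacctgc
Cd3d, chr9:44981636-44981795, plus strand, 257 ± 44.7 CPM: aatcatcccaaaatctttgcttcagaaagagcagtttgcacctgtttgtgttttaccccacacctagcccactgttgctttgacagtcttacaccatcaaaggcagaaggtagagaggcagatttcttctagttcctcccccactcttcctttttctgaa
Gimap3, chr6:48770842-48771001, minus strand, 1048 ± 87.3 CPM: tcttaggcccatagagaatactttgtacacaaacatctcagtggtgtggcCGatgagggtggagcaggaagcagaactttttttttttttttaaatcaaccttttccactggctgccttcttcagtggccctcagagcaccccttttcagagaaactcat
Alb, chr5:90460720-90460879, plus strand, under 0.1 CPM: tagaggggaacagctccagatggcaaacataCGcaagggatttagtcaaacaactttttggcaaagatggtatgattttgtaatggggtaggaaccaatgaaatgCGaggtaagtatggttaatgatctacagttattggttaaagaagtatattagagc
Ins1, chr19:52264147-52264306, plus strand, 0.0547 to 30.2 CPM: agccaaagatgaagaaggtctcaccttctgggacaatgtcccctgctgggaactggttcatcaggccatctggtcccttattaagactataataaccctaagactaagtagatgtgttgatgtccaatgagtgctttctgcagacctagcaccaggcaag

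The stretches of the housekeeping gene Eef2 and the quiescence factor Foxo1 held 19 and 15 CG. Those of the T cell genes Cd3e, Cd3d and Gimap3 held 5, 0 and 1, although all 3 genes were expressed in every library. The silent liver gene Alb held 2 and Ins1 none. By this count the 3 T cell genes stood nearer to Alb than to Eef2.

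The lists differed in this count. Ribosomal protein genes had a median of 21 CG and 81.1% of 53 had at least 15, and the naive factors had a median of 27 over 14 genes. Receptor complex genes had a median of 3.5 over 6 genes, none with 15, and naive surface genes a median of 7 over 13 genes. T cell receptor signalling genes had a median of 18.5 over 8 genes, 4 of them with at least 15, so T cell genes did not all have few CG. Olfactory receptors had a median of 1, and 0 of 929 had 15. In all, 574 expressed genes had 5 or fewer CG, and the highest of them by TPM were Gimap3, Gimap4, Itgb7, Cd53 and Jund, which are here named for that rank. The other way round, 577 genes under 0.1 CPM had at least 15 CG, 7 of them Hox genes.

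Short motifs were counted in the same windows, and base composition was not held constant. The ETS motif CCGGAAGT stood on either strand in 9.59% of expressed windows, 1.03% of silent ones and 5.22% of all. TATAAA stood in 6.47% of expressed, 24.0% of silent and 13.6% of all windows, and CCGCCC in 66.6%, 16.5% and 45.8%. The printed stretch of Eef2 held TATAAA and the cyclic-AMP motif TGACGTCA, which stood in 2.37% of all windows. A match describes letters and is no evidence of binding.

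**Figure D4:**
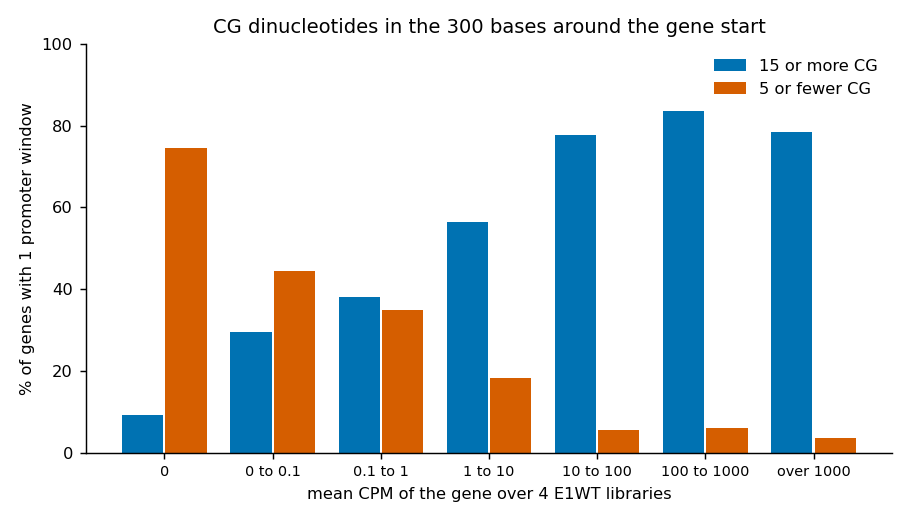
Share of genes with 15 or more CG (blue) and with 5 or fewer CG (orange) in the 300 bases around the start (y axis, percent of genes with 1 window), by mean CPM over the 4 E1WT libraries (x axis). The blue share is 9.13% in genes with no count and 83.5% at 100 to 1000 CPM.

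By position, expressed genes made up 40.3% to 53.9% of the genes on each autosome. On the X chromosome 355 of 1051 genes (33.8%) were expressed and 50.0% were silent, beside 46.0% and 32.8% over all genes. On the Y chromosome 4 of 47 genes were expressed, which are Ddx3y, Kdm5d, Eif2s3y and Uty.

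Across the 8478 genes with a mean of at least 10 CPM, Pearson correlations of log2(CPM + 1) between libraries ran from 0.981 to 0.996 and Spearman correlations from 0.979 to 0.996. These are correlations across genes, which are not independent replicates. The median CV was 7.66%, and counting error alone would give a median of 2.49%. A CV over 25% was found in 88 genes (1.04%), and in 31 genes (0.366%) the highest library had at least 2 times the lowest. The biological coefficient of variation fitted by edgeR was 11.1% over 12431 genes. Library pairs differed by more than sampling noise, and chi-square divided by its degrees of freedom was 4.10 between libraries 1 and 3 and 60.1 between libraries 2 and 4.

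The spread differed between lists. The median CV was 3.55% over the 6 markers, 4.52% over T cell receptor signalling, 6.35% over the receptor complex, 6.74% over naive surface genes and 7.53% over naive factors. For comparison, it was 6.53% over all genes of 300 to 1000 CPM. The median CV was 14.9% over 36 genes of oxidative phosphorylation, a list with a median of 60.9 CPM. All genes of 30 to 100 CPM had 6.89%. Over 76 ribosomal protein genes, a list with a median of 1105 CPM, it was 12.1%, beside 8.93% over all genes from 1000 CPM. The summed ribosomal protein level was 101710, 112220, 103262 and 86719 CPM, and that of oxidative phosphorylation 4175, 4652, 4167 and 3660 CPM. Both sums were highest in library 2 and lowest in library 4.

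Most genes of high CV had this order, but not the 3 highest, since Ins2 and Ins1 were highest in library 3 and Krt14 in library 4. Of the 88 genes over 25%, 72 were highest in library 2 and lowest in library 4, and 12 the reverse. The median exon length was 1713 bases in the 72 and 7450 in the 12, beside 4860 over all genes with a mean of at least 10 CPM and a length. Rps29, a small ribosomal protein gene, had 362, 564, 395 and 262 CPM, and Snrpd3, of the spliceosome core, 56.4, 84.8, 58.9 and 37.2. Ost4, Atox1 and Uqcr10, small proteins of glycosylation, copper handling and respiration, followed the same order with CVs of 33.2%, 34.7% and 31.5%. Tram2, with 6661 bases of exon, ran the other way at 10.7, 6.29, 12.7 and 13.3 CPM. So did Slfn8, at 10.9, 7.05, 11.1 and 15.6 CPM, although its 4091 bases lie below that median.

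Exon length went with the deviation of these 2 libraries across all such genes, which were put into 5 equal groups by length. In the shortest group, the median log2 deviation from the gene's own mean was 0.16 in library 2 and -0.18 in library 4. In the longest group it was -0.09 and 0.10. Libraries 1 and 3 lay between -0.01 and 0.01 in each group. The Spearman correlation of deviation with length, over 8456 genes that share libraries, was -0.58 in library 2 and 0.59 in library 4, against -0.09 and -0.04 in libraries 1 and 3. Without library 4 the number of genes over 25% was 16, without library 2 it was 29, and without libraries 1 or 3 it was 264 and 265. With the length trend of each library removed, the number over 25% was 28, of which 16 were among the 88, and the median CV was 6.35%. That set held only genes with a count in every library and a mean of at least 10 CPM after removal. Ins2 had no count in library 1 and was left out. Ins1, at a mean of 10.1 CPM before removal, is not among the 28 either. Neither absence shows a smaller spread of the insulin genes.

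**Figure D5:**
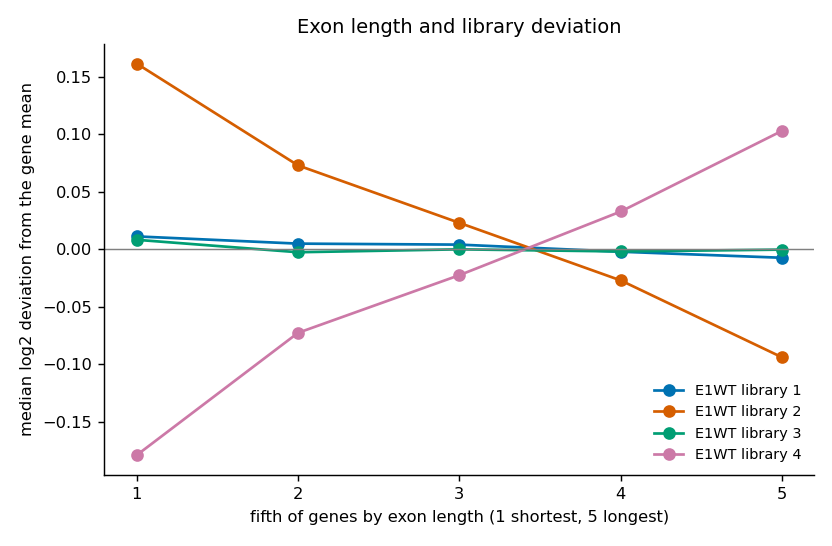
Median log2 deviation of each E1WT library from the mean over the 4 libraries (y axis) in 5 groups of genes by exon length (x axis, 1 shortest to 5 longest). Library 2 falls from 0.16 to -0.09 and library 4 rises from -0.18 to 0.10, while libraries 1 and 3 stay near 0.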

How the data were processed

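Per the labels' protocols, RNA from spleen naive CD4 T cells was sequenced as paired reads. The authors deposited 1 table per sample of raw read counts per gene, and the submitters' processing notes name TopHat2 2.1.0, HTSeq 0.9.1 and the mm10 build. Which annotation was counted, with what strandedness and after which read filters, is not given in the sources used here. Each table closes with 5 rows that name no gene, which held 33.3% to 37.0% of the deposited counts and were left out.

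CPM was computed from the gene total. TPM used summed exon lengths of the GENCODE M21 annotation, found for 24027 of 24421 symbols (651 of them through an older symbol). Scripts used Python 3.11.15, pandas 2.3.3, R 4.3.3, edgeR 4.0.16 and DESeq2 1.42.0. The measures of spread were also run on simulated counts drawn without a length trend. That run cannot show how they behave under the length trend of the real libraries. With 1 group no test between groups was made.

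The members and gene lists were chosen with earlier results of these data known. Named genes were the 6 markers, the 25 highest by TPM and by CPM, in each list up to 5 of the highest members and those under 0.1 CPM, and the 20 of highest CV. Others were named after their values were seen, among them the gene family shares, the lower members of lists, the further islet and keratin genes and the promoter examples.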

Additional observations from a re-analysis of the deposited data

Results flagged for a closer look

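In each of 41 summed lists and 52 genes the gap of the highest or lowest library to its nearest neighbour was set against the range of the 4 libraries. Chance alone flags about 1 in 20 such groups, and 3 of 93 were flagged. The summed level of T cell receptor signalling genes was 7003 CPM in library 1 and 6916 to 6928 CPM in the others. Rplp0, a protein of the ribosomal stalk, had 3707 CPM in library 4 and 4119 to 4200 CPM in the others. Rps2, of the small ribosomal subunit, had 2172 CPM in library 4 and 2372 to 2391 CPM in the others.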

How the results depend on the processing

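No paired analysis was possible because only 1 group was described. Over 27 results and 144 alternative values, 137 stayed and 7 moved. To stay meant to lie within 1.5 times the value reported for counts of genes and other values with no SD. For values with an SD it meant to lie within 1 SD. Leaving out 1 of 4 libraries cannot move a mean by 1 SD, so those alternatives could only stay. The number that stayed is therefore no measure of how firm the results are. Ribosomal protein genes took 10.1% of counts and 22.4% of TPM. The number of genes with a CV over 25%, 88 as reported, was 883 with a mean of at least 1 CPM. It was 16 to 265 with 1 library left out. With the exon-length trend of each library removed it was 28 (16 of the 88 remained). The last setting used only genes with a count in every library, so Ins2 was not in it. These alternatives of the number over 25%, and leaving out a library for the counts of genes and the shares, were chosen after seeing the data. The median CV was 5.88% to 8.40% with 1 library left out and 6.35% with the length trend removed, and edgeR's biological coefficient of variation 8.15% to 13.0%. Expressed genes numbered 9335 at 5 CPM and 11905 at 0.5 CPM. Of the 25 genes highest by TPM, 18 stayed with the mean transcript length. The share of counts without mitochondrially encoded genes was not run, since no such gene has a row in the tables used. A count of 3 is 0.0817 to 0.106 CPM, so levels under about 0.1 CPM rest on a few reads.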
